A study of Mus musculus with 4 samples.

Results

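The mitochondrial ribosomal protein genes were taken as the protein-coding genes of the GENCODE M21 mouse annotation whose symbol begins with Mrpl or Mrps, and 78 of the 14949 genes with reads in the deposited count table met this rule. Of these, 51 encode proteins of the large mitoribosomal subunit and 26 encode proteins of the small subunit. Mrps36 stands apart, since its product is a component of the 2-oxoglutarate dehydrogenase complex. Mrps30 and Mrps18a were counted with the large subunit, where their proteins sit. The mitochondrial ribosome translates the few proteins that mitochondrial DNA encodes, all of them core subunits of the respiratory chain and ATP synthase. Its own proteins are encoded in the nucleus, made in the cytosol and imported, and they join ribosomal RNAs made inside the organelle. Some descend from bacterial ribosomal proteins, and others have no counterpart in bacteria and are particular to the mitochondrial particle.

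The study asked whether Tut1, the enzyme that adds uridines to the U6 small nuclear RNA of the spliceosome, affects splicing in neural stem cells. Cells were primary cultures from the neocortex of floxed E12.5 mouse embryos, labelled as neural cells of the brain, and RNA was read as full-length cDNA on a Nanopore instrument after PCR. Tut1f/f cells given empty lipid nanoparticles (LNP) were the control. Tut1f/f cells, Trp53f/f cells and Tut1f/f;Trp53f/f cells given LNP with Cre mRNA, 3 days before collection, gave the Tut1f/f;Cre library, the library labelled Trp53f/f;Cre, below the Trp53-labelled library, and the library with the label Tut1f/f;Trp53f/f;Cre, below the double-labelled library. The 4 libraries are given in this order wherever values are listed. Each group had 1 library, so every interval below covers counting error only, and no value has a replicate check. No library held Trp53f/f cells without Cre, and the control also differed from the others in receiving no Cre mRNA. In bulk RNA, fewer cells of a type and less RNA per cell cannot be told apart.

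Reads that named a gene numbered 4244467, 2968653, 3432639 and 2863392. The control stood apart in that entries giving only a genome position, with no gene, held 17.2% of its reads against 30.2%, 28.9% and 27.3% in the others. Tut1 had 37, 11, 14 and 27 reads, or 9.30, 3.63, 4.02 and 9.15 CPM (reads per 1000000, scaled by edgeR's trimmed mean of M-values, TMM). Its level was thus low in the Trp53-labelled library and near the control in the double-labelled library. The loxP sites flank exon 2 of Tut1, and a count over the whole gene does not read the deleted part, so it is no check of the deletion, and reads of exon 2 were not analysed here. Whether the labels of these 2 libraries were exchanged cannot be checked from these counts, so the direction of every difference between them rests on the labels as given. Trp53 had 175, 67, 10 and 19 reads, fewest in the 2 libraries whose labels name it. The 9 neural stem cell markers listed (Nes, Sox2, Pax6 and others) summed to 11590 to 13389 CPM, of which Fabp7 alone held 9912 CPM in the control. Hes1 was called higher than the control at 2-fold in all 3 Cre mRNA libraries (1.74, 1.61 and 1.60 on the log2 scale), Nes and Sox9 in the first 2 of them and Pax6 in Tut1f/f;Cre, while Vim was called lower in the last 2 (-1.03 and -1.02). All microglial and endothelial markers were at 0 reads, and neuronal markers summed to 15.2 to 22 CPM. Markers of the oligodendrocyte lineage summed to 354, 585, 676 and 475 CPM and those of astrocytes to 49.5, 11.9, 6.89 and 31.5 CPM, and the part of all these markers in the results was not tested.

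Together the 78 genes held 39570, 29952, 33504 and 32043 reads, or 0.932%, 1.01%, 0.976% and 1.12% of the reads that named a gene. Their summed level was 9949 CPM in the control (95% Poisson interval 9852 to 10048), 9889 CPM in Tut1f/f;Cre (9777 to 10002), 9615 CPM in the Trp53-labelled library (9512 to 9719) and 10860 CPM in the double-labelled library (10741 to 10979). The first 2 libraries overlapped, and the double-labelled library was the highest. On the log2 scale the sum differed from the control by -0.01 (-0.03 to 0.01) in Tut1f/f;Cre, by -0.05 (-0.07 to -0.03) in the Trp53-labelled library and by 0.13 (0.11 to 0.15) in the double-labelled library. These 3 comparisons share the control library. Against the Trp53-labelled library, the double-labelled library was higher by 0.18 (0.15 to 0.20), and against Tut1f/f;Cre by 0.14 (0.11 to 0.16). These small differences depended on the scaling. Scaled to the total of gene reads, the 3 differences from the control were 0.11 (0.09 to 0.14), 0.066 and 0.26, so that the first then excluded no change and the second changed sign. When reads of entries naming only a position inside a gene were added to every gene and TMM was computed again, they were -0.36, -0.37 and -0.18, all below the control, and the double-labelled library was still the highest of the 3.

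**Figure D1:**
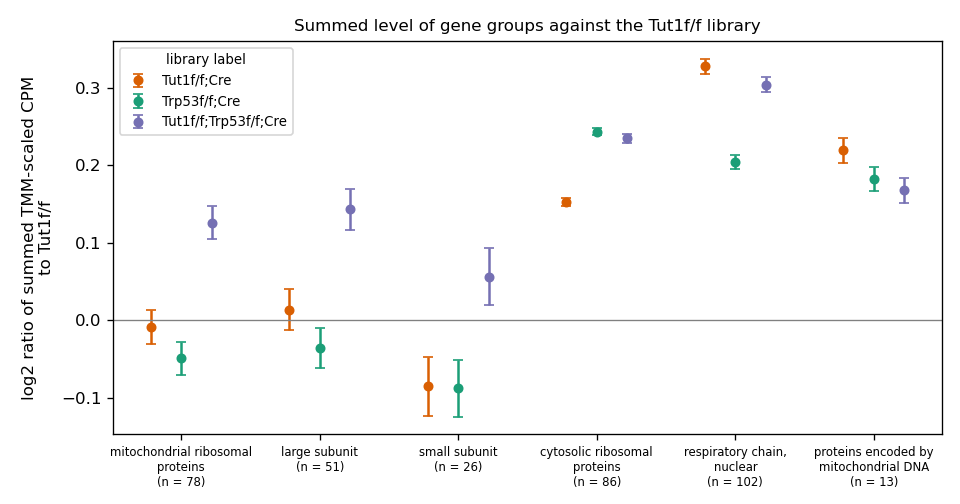
Log2 ratio to the Tut1f/f control of the summed TMM-scaled CPM of 6 gene groups, 1 point per Cre mRNA library by its label, with exact 95% counting intervals. All points use the reads that name a gene and their scaling. All 78 mitochondrial ribosomal protein genes lie at -0.01, -0.05 and 0.13, while all 3 points of the cytosolic ribosomal protein, respiratory chain and mitochondrially encoded protein groups lie above 0.

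Other gene groups, set beside these for comparison, lay above or below the control by the reads that name a gene. Their sums were not recomputed with position-only entries, so their signs under that scaling are not given. That step moved the sum of the mitochondrial ribosomal protein genes to -0.36, -0.37 and -0.18. The 86 cytosolic ribosomal protein genes summed to log2 differences of 0.15, 0.24 and 0.23 in the 3 Cre mRNA libraries, and the 102 nuclear genes of the respiratory chain to 0.33, 0.20 and 0.30. The 13 protein-coding genes of mitochondrial DNA, whose mRNAs the mitoribosome translates, summed to 0.22, 0.18 and 0.17, and all 35 mitochondrially encoded genes, ribosomal RNAs included, to 1.09, 0.99 and 0.81. The 5 lists of genes that serve the mitoribosome lay on both sides of the control in sum. By their median gene all 5 lay below it in Tut1f/f;Cre and the Trp53-labelled library, and on both sides in the double-labelled library. In sum, genes of assembly and rRNA modification were at -0.58, -0.63 and -0.46 and translation factors at -0.44, -0.59 and -0.11, while genes of mitochondrial transcription and mRNA binding were at 0.63, 0.69 and 0.68 and mitoribosomal proteins under other symbols at 0.21, 0.35 and 0.43. Most reads of the transcription list were of Slirp, and its median gene was at -0.22, -0.08 and 0.10. Most reads of the other-symbol list were of Chchd1, and its median gene was at -0.18, -0.11 and -0.04. The sum of the aminoacyl-tRNA synthetases, at -1.56, -1.69 and -2.13, was carried by Lars2, and their median gene was at -0.50, -0.69 and -0.71. For each 1000 reads of cytosolic ribosomal protein genes there were 64.1, 57.3, 52.3 and 59.5 reads of mitochondrial ribosomal protein genes. For each 1000 reads of respiratory chain genes there were 214, 170, 180 and 189. Both ratios were highest in the control, and both are free of the scaling between libraries.

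The genes were also described by subunit, with no test of a difference between the subunits. Summed over the large subunit, the log2 difference from the control was 0.01 (-0.01 to 0.04), -0.04 (-0.06 to -0.01) and 0.14 (0.12 to 0.17). Summed over the small subunit it was -0.09 (-0.12 to -0.05), -0.09 (-0.12 to -0.05) and 0.06 (0.02 to 0.09). The median gene of the large subunit lay at 0.01, -0.06 and 0.17, and the median of the 26 small-subunit genes at -0.49, -0.25 and -0.22. Below the control were 19, 17 and 16 of the 26 small-subunit genes and 25, 28 and 21 of the 51 large-subunit genes, where 50.3%, 50.9% and 50.7% of all genes tested were. For the 46 genes with a bacterial counterpart the median was 0.03, -0.06 and 0.12, and for the 31 mitoribosomal genes without one it was -0.18, -0.37 and -0.06.

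Over all 78 genes the median log2 difference from the control was -0.08 in Tut1f/f;Cre, -0.12 in the Trp53-labelled library and 0.09 in the double-labelled library. Over the 9882 genes that passed edgeR's expression filter these medians were -0.01, -0.02 and -0.01. With position-only entries added to every gene and the scaling recomputed, the medians of the 78 were -0.41, -0.40 and -0.20, beside -0.08, -0.07 and -0.07 over all genes tested. Of the 78, 35 (44.9%) were below the control in all 3 libraries and 29 (37.2%) were above it in all 3, comparisons that share the control, where 37.5% and 36.6% of all genes tested were. With position-only entries rescaled in this way the counts were 51 (65.4%) and 12 (15.4%), beside 43.6% and 36.2%. Among the libraries without the control the spread was small and tilted one way: 63 of 78 were higher in the double-labelled library than in the Trp53-labelled library (median 0.18, against 0.03 for all genes tested), and 64 were higher than in Tut1f/f;Cre (median 0.15, against 0.03). By the reads that name a gene, the control held the highest level of 35 genes and the double-labelled library that of 34, while Tut1f/f;Cre and the Trp53-labelled library held 4 and 5. The same count was not made over all genes tested. With position-only entries rescaled, the control held the highest level of the 51 genes below it in all 3 libraries.

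Single genes were called different between a pair of libraries at 2-fold or more with a 95% interval of the ratio that excluded no change. This rule compares 2 libraries and is no test of the conditions. Of the 77 genes that passed the filter (Mrps24 did not), 2 were called higher and 9 lower in Tut1f/f;Cre than in the control, or 2.60% and 11.7%, where 12.7% and 13.3% of all genes tested were called. In the Trp53-labelled library the counts were again 2 and 9, with backgrounds of 12.5% and 15.3%. In the double-labelled library they were 2 and 6 (2.60% and 7.79%), with backgrounds of 10.3% and 9.76%. The lower calls thus stood near or under the background and the higher calls well under it, by the reads that name a gene. Between the double-labelled library and the Trp53-labelled library 1 gene was called higher and 0 lower, with backgrounds of 4.68% and 2.56%. Between the double-labelled library and Tut1f/f;Cre it was again 1 and 0, with backgrounds of 2.23% and 2.27%. At 1.5-fold, 26, 19 and 29 of the 77 were called in either direction against the control (33.8%, 24.7% and 37.7%), where 42.2%, 44.2% and 35% of all genes tested were called.

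**Figure D2:**
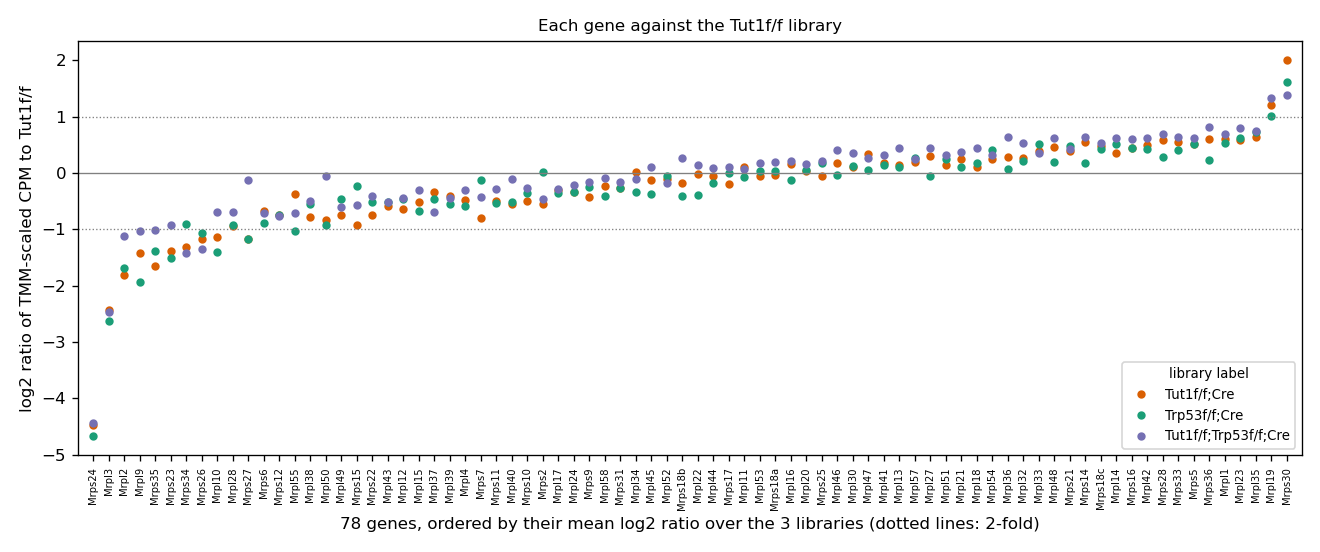
Log2 ratio to the Tut1f/f control of TMM-scaled CPM for each of the 78 genes, ordered by their mean, 1 point per Cre mRNA library by its label, with 2-fold as dotted lines. Most points lie within 2-fold, Mrps24 and Mrpl3 lie farthest below the control and Mrpl19 and Mrps30 above 2-fold in all 3 libraries.

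By the reads that name the gene, Mrps24 and Mrpl3 showed the largest differences. With position-only entries added, Mrpl2 lay farther below the control than either in Tut1f/f;Cre. Mrps24, the counterpart of a bacterial protein at the mRNA entry of the small subunit (chr11:5703983-5715680, minus strand, GRCm38), had 204, 7, 7 and 7 reads, or 51.3, 2.31, 2.01 and 2.37 CPM. The 3 Cre mRNA libraries were alike and all far below the control, by -4.47 (-5.80 to -3.40), -4.67 (-6.01 to -3.61) and -4.43 (-5.77 to -3.37) on the log2 scale. These reads are those whose entry names the gene. Entries that name only a genome position inside the Mrps24 gene body, with its start rounded down to 1000 bases and on either strand, held a further 79, 93, 111 and 60 reads. With them Mrps24 had 283, 100, 118 and 67 reads, and the differences became -1.11 (-1.45 to -0.77), -1.07 (-1.39 to -0.76) and -1.65 (-2.05 to -1.26) with the scaling of the named reads. With TMM computed again over all genes enlarged in the same way they were -1.49, -1.41 and -1.97. Mrps24 overlaps Urgcp on the same strand, which had 5, 5, 2 and 1 reads.

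Mrpl3 (chr9:105053239-105079888, plus strand), a large-subunit protein whose bacterial counterpart reaches towards the peptidyl transferase centre, had 141, 20, 20 and 19 reads. Its level was 35.5, 6.60, 5.74 and 6.44 CPM, again alike in the 3 Cre mRNA libraries and lower than the control by -2.42 (-3.18 to -1.74), -2.63 (-3.38 to -1.95) and -2.46 (-3.24 to -1.76). With the 10, 20, 19 and 17 reads of entries that name only a position in the gene, the differences were -1.52, -1.76 and -1.64 with the scaling of the named reads and -1.91, -2.10 and -1.96 with the scaling recomputed. Mrpl2, another protein beside the peptidyl transferase centre, had 287, 62, 78 and 98 reads (72.2, 20.5, 22.4 and 33.2 CPM). Its differences were -1.82 (-2.24 to -1.42), -1.69 (-2.07 to -1.32) and -1.12 (-1.47 to -0.78), and here the double-labelled library lay nearest to the control.

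Mrpl9, Mrps26 and Mrps35 were also called lower in all 3 libraries against the shared control. With Mrpl2 and Mrpl3 they make 5 of the 77 genes, and Mrps24, which did not pass the filter, makes 6 of 78. The 5 are 6.49% of the 77, beside 5.76% of all genes tested, in comparisons that share the control. With position-only entries added and the scaling recomputed, 8 of the 77 (10.4%) were called lower in all 3, beside 6.35% of all genes tested. Mrpl28, a large-subunit protein named here after its values were seen, was among these 8 (-1.32, -1.25 and -1.0), where the reads that name it gave -0.94, -0.92 and -0.69. Mrpl9, a large-subunit protein with a bacterial counterpart, had 355, 101, 81 and 129 reads and differences of -1.42 (-1.75 to -1.10), -1.94 (-2.31 to -1.59) and -1.03 (-1.33 to -0.74). Mrps35, a small-subunit protein with no bacterial counterpart, had 379, 92, 127 and 139 reads and differences of -1.65 (-1.99 to -1.32), -1.39 (-1.69 to -1.09) and -1.02 (-1.31 to -0.73). For both genes the control stood above all 3 others. Mrps26, also particular to the mitochondrial small subunit, had only 86, 29, 36 and 25 reads, and differences of -1.18 (-1.84 to -0.55), -1.07 (-1.67 to -0.49) and -1.35 (-2.06 to -0.69). When entries naming only a position were added, Mrpl2, Mrpl3, Mrps24 and Mrps26 were past 2-fold in all 3 comparisons under either scaling. Mrpl9 was at -0.78, -0.98 and -0.66 with the scaling of the named reads and at -1.16, -1.31 and -0.98 with the scaling recomputed. Mrps35 was at -0.94, -0.92 and -0.69 with the first and at -1.33, -1.25 and -1.01 with the second. With the scaling recomputed only Mrpl9 in the double-labelled library was under 2-fold.

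**Figure D3:**
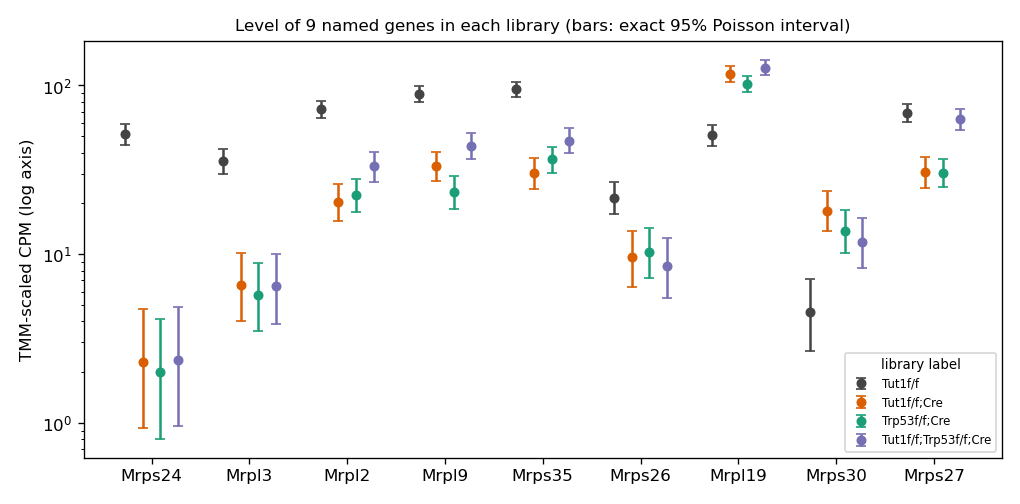
Level (TMM-scaled CPM, log axis) of the genes called in all 3 Cre mRNA libraries against the control and of Mrps27, with 95% counting intervals, 1 point per library. The control is highest for Mrps24, Mrpl3, Mrpl2, Mrpl9, Mrps35 and Mrps26 and lowest for Mrpl19 and Mrps30, while Mrps27 is near the control in the double-labelled library.

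Both genes called higher than the control in all 3 libraries (2.60% of the 77, beside 7.18% of all genes tested) encode large-subunit proteins. Mrpl19 (chr6:81957851-81965958), which has a bacterial counterpart, had 201, 355, 356 and 377 reads (50.5, 117, 102 and 128 CPM). Its differences were 1.21 (0.96 to 1.47), 1.02 (0.76 to 1.27) and 1.34 (1.09 to 1.59), and the 3 Cre mRNA libraries lay close together. With the 136, 132, 134 and 106 reads of entries naming only a position they were 0.92, 0.73 and 0.95 with the scaling of the named reads and 0.54, 0.39 and 0.63 with the scaling recomputed, under 2-fold with both. Mrps30, also known as PDCD9 and first described as a pro-apoptotic protein, had few reads, 18, 55, 48 and 35 (4.53, 18.2, 13.8 and 11.9 CPM). Its differences were 2.0 (1.21 to 2.86), 1.61 (0.80 to 2.48) and 1.39 (0.53 to 2.30), and with position-only entries 1.39, 1.17 and 0.94, or 1.01, 0.84 and 0.62 with the scaling recomputed.

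Mrps27, a small-subunit protein of the pentatricopeptide repeat family, which binds RNA, was the 1 gene called higher in both comparisons without the control. It had 274, 93, 106 and 186 reads, or 68.9, 30.7, 30.4 and 63.0 CPM. The control and the double-labelled library were alike (-0.13, -0.40 to 0.15), and the other 2 were lower than the control by -1.17 (-1.52 to -0.82) and -1.18 (-1.52 to -0.85). The double-labelled library was higher than the Trp53-labelled library by 1.05 (0.70 to 1.41) and higher than Tut1f/f;Cre by 1.04 (0.67 to 1.41). With position-only entries added the differences from the control were -0.67, -0.78 and 0.11 with the scaling of the named reads and -1.05, -1.12 and -0.21 with the scaling recomputed. The double-labelled library was then not past 2-fold of the Trp53-labelled library or Tut1f/f;Cre under either scaling.

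A further 4 genes were called lower in 1 or 2 of the comparisons with the control. Mrps23, a small-subunit protein, had 358, 105, 110 and 140 reads and was called in the first 2 (-1.38 and -1.51) and not in the double-labelled library (-0.92). Mrpl10, the stalk protein that anchors copies of Mrpl12, was also called in the first 2 (-1.14 and -1.41, with -0.68 in the double-labelled library). Mrps34, a small-subunit protein with no bacterial counterpart, was called in Tut1f/f;Cre (-1.31) and in the double-labelled library (-1.42) but not in the Trp53-labelled library (-0.91). It overlaps Nme3 on the same strand, which had 142, 64, 127 and 60 reads. Mrpl55, a large-subunit protein with a bacterial counterpart, was called only in the Trp53-labelled library (-1.03, -1.34 to -0.74), with 313, 184, 134 and 142 reads. With position-only entries added under the scaling of the named reads, Mrpl10 (-0.70 and -1.0 in the first 2) and Mrpl55 (-0.80) lost their calls. With the scaling recomputed they were called in the same libraries as before, and Mrps23 was called also in the double-labelled library (-1.23) and Mrps34 also in the Trp53-labelled library (-1.25). Of all 78 genes, 42 overlap another annotated gene, and how the authors assigned shared reads is not given in the sources used here.

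Mrpl12, Mrps12, Mrpl45 and Mrpl58, listed for their textbook roles, were within 2-fold of the control by the reads that name them. Mrpl12, which forms the flexible stalk and is also known to bind the mitochondrial RNA polymerase, had 440, 214, 279 and 239 reads (-0.65, -0.47 and -0.45, intervals all below no change). Mrps12, a protein of the decoding centre, had 453, 207, 236 and 199 reads and nearly equal differences of -0.74, -0.75 and -0.76. Mrpl45, which tethers the ribosome to the inner membrane, was at -0.12, -0.37 and 0.10. Mrpl58, a ribosome-bound peptidyl-tRNA hydrolase that frees stalled ribosomes, was at -0.23, -0.41 and -0.10. With position-only entries added and the scaling recomputed, Mrpl12 was called lower in Tut1f/f;Cre (-1.03) and Mrps12 in all 3 libraries (-1.12, -1.10 and -1.05), while Mrpl45 and Mrpl58 were not called.

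The 3 Mrps18 paralogs occupy different places, Mrps18a in the large subunit and the others in the small one, and they differed in pattern. Mrps18a was near the control throughout (-0.04, 0.03 and 0.20). Mrps18b was at -0.18, -0.41 and 0.27 and was higher by 0.68 (0.42 to 0.95) in the double-labelled library than in the Trp53-labelled library. Mrps18c, with 420, 446, 495 and 449 reads, was above the control in all 3 (0.48, 0.43 and 0.53). Mrpl33, one of the smallest large-subunit proteins, had 1178, 1174, 1467 and 1124 reads and was higher by 0.39, 0.51 and 0.36. Mrpl18, which lies in the central protuberance of the large subunit, was at 0.10, 0.18 and 0.45. Mrps36, the dehydrogenase component, had 533, 617, 550 and 698 reads and was higher than the control by 0.60 (0.43 to 0.77), 0.24 (0.06 to 0.41) and 0.82 (0.66 to 0.99). With position-only entries added and the scaling recomputed, Mrps36 was at 0.22, -0.10 and 0.50, Mrpl33 at 0.02, 0.17 and 0.05, Mrpl18 at -0.27, -0.17 and 0.14 and Mrps18c at 0.09, 0.12 and 0.20. Mrps18a was then at -0.39, -0.28 and -0.10 and Mrps18b at -0.56, -0.66 and -0.03, so signs among these genes depended on the scaling.

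The larger share of position-only entries in the 3 Cre mRNA libraries was also seen within these genes. Within the bodies of these genes, 340 such entries in 69 of the 78 held 2026, 2156, 2193 and 2001 reads. That was 4.87% (95% Wilson interval 4.67 to 5.08), 6.71% (6.45 to 6.99), 6.14% (5.90 to 6.40) and 5.88% (5.63 to 6.13) of these reads and the named reads together. Such reads may come from a transcript of the gene or from another overlapping it, and which was not tested. Counting them with their gene, 6, 5, 4, 0 and 0 of the 77 genes were called in the 5 comparisons when the scaling of the named reads was kept, in place of 11, 11, 8, 1 and 1. Over all genes tested 28%, 27.4%, 22.1%, 3.51% and 2.89% were then called. Against the control, 5, 4 and 4 of the 77 were lower (6.49%, 5.19% and 5.19%), with backgrounds of 6.87%, 8.1% and 5.79%, and 1, 1 and 0 were higher, with backgrounds of 21.1%, 19.3% and 16.4%. That scaling leaves out the added reads, and the median of all genes lay at 0.29, 0.26 and 0.24 above the control.

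With TMM computed again over the enlarged counts of all genes, 19, 14, 8, 0 and 0 of the 77 were called, where 25.2%, 24.9%, 20.2%, 3.62% and 2.82% of all genes were. All of these but Mrps30 in Tut1f/f;Cre lay below the control. Lower were 18, 14 and 8 of the 77, or 23.4%, 18.2% and 10.4%, with backgrounds of 14.1%, 14.3% and 11%. Higher were 1, 0 and 0, with backgrounds of 11.1%, 10.6% and 9.23%. Under this scaling the share of lower calls was thus above the background in Tut1f/f;Cre and the Trp53-labelled library and near it in the double-labelled library, with no test of the difference. The number of calls thus turned on the scaling as well as on the reads added. A position shared by overlapping genes was counted for each of them, and both counts were chosen after the values were seen.

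**Figure D4:**
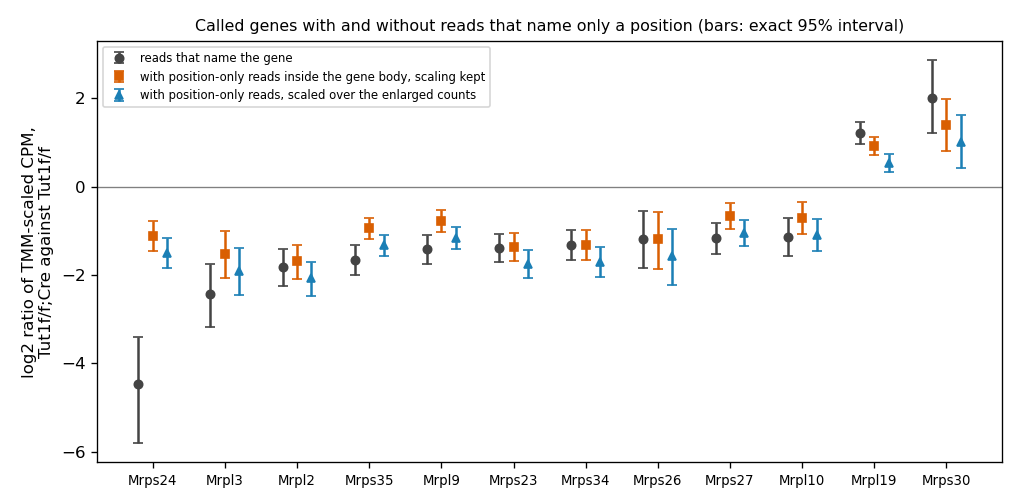
Log2 ratio of TMM-scaled CPM in Tut1f/f;Cre against the control for 12 called genes, from reads that name the gene (circles) with reads of entries that name only a position inside the gene body added under the same scaling (squares), and with TMM computed again over the enlarged counts (triangles), with exact 95% counting intervals. Mrps24 moves from -4.47 to -1.11 and -1.49, and Mrpl3 from -2.42 to -1.52 and -1.91, each triangle lying below its square.

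Differences from the control varied with annotated transcript length, not in 1 direction over the whole range. For 74 of the 78 genes the most-read annotated transcript gave a length, from 418 to 4481 bases with a median of 1056.5, against 2114 for 7656 protein-coding genes tested. Among all genes the median difference of Tut1f/f;Cre from the control was 0.40 for transcripts up to 750 bases, 0.07 up to 1000, -0.28 up to 1500 and -0.42 up to 2500, and -0.15 and 0.18 in the 2 bins above that. Among the mitochondrial ribosomal protein genes it was 0.13 (17 genes), 0.07 (16), -0.48 (21) and -0.77 (12). The Trp53-labelled library gave 0.17, 0.04, -0.46 and -0.56 in the same bins, and the double-labelled library 0.32, 0.26, -0.29 and -0.37. None of the 17 shortest were called in either direction in these 3 comparisons, where 19.0%, 20.9% and 15.7% of all genes up to 750 bases were called higher and 4.34%, 5.48% and 3.57% lower. In the bins over 2500 bases, with 6 genes and 1 gene, the medians of these genes were above 0 in all 3 libraries. Over the 74 genes Spearman's rho between length and the difference from the control was -0.23, -0.23 and -0.16, and over the 7656 genes it was -0.015, -0.028 and -0.091, given as a description across genes of the same libraries. Mrps24, with 700 bases, is outside these bins because it did not pass the filter. The part of length in the calls was not tested.

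Across all 4 libraries an additive edgeR quasi-likelihood model of Tut1 and Trp53 status, as labelled, left 1 residual degree of freedom. It called 0 of the 77 genes for either term (false discovery rate under 0.05 and at least 2-fold), and 0% of all 9882 genes for Tut1 and 0.0101% (1 gene) for Trp53. At an unadjusted p under 0.05 there were 187 genes for Tut1 with none of the 77 among them, and 153 for Trp53 with 1 of the 77. DESeq2 also called 0 of the 77 for both terms, with 70 and 62 genes under an unadjusted p of 0.05 and none of the 77 among them. The lowest p values for Tut1 belonged to Mrpl3 (log2 fold change -1.20, SE 0.69), Mrps34 (-0.92) and Mrpl19 (0.77). For Trp53 they belonged to Mrpl3 (-1.40, SE 0.70), Mrpl9 (-0.78) and Mrpl55 (-0.69). The edgeR adjusted p of each was 0.9999. The control alone had neither status, and it alone received no Cre mRNA. The part of Cre mRNA in either term cannot be told apart.

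No gene was called in the same direction in both comparisons of Tut1 status that share no library, Tut1f/f;Cre against the control and the double-labelled library against the Trp53-labelled library. Only 1 member was called at all in the second of these, and 0.668% of all genes tested were called in the same direction in both. The sign was the same for 39 of the 78 (50%), beside 39.3% of all genes tested, and for 26 (33.3%, beside 41.5%) with position-only entries added and rescaled. With Tut1 status fitted alone and the Trp53-labelled library left out, 10 of 78 (12.8%) were called by edgeR, beside 17.9% of the 10328 genes tested. With Trp53 status fitted alone and Tut1f/f;Cre left out, 10 of 78 (12.8%) were called, beside 13.6% of 10567. The genes were the same in both fits: Mrpl2, Mrpl3, Mrpl9, Mrpl19, Mrps23, Mrps24, Mrps26, Mrps30, Mrps34 and Mrps35. Both fits set the control against 2 Cre mRNA libraries, and in both status and Cre mRNA cannot be told apart.

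Isoform usage, the share of a gene's reads that an isoform holds, was compared because the study concerned splicing. The 78 genes had 455 isoform entries, 187 of them annotated transcripts under their plain identifier, 69 an annotated identifier with a numbered suffix and 199 named after a read. The count ran up to 22 per gene, and 6 genes had a single isoform. Plain transcripts held 78.1%, 79.4%, 79.6% and 78.4% of the reads, and entries named after a read held 5.45%, 5.44%, 4.95% and 6.10%. An isoform was called where Fisher's two-sided exact test gave an adjusted p under 0.05 over all isoforms tested and usage differed by at least 10 percentage points.

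Called were 6 of 276 isoforms in Tut1f/f;Cre against the control (2.17%, with 8.66% of all isoforms), 11 of 269 in the Trp53-labelled library (4.09%, with 9.12%) and 3 of 267 in the double-labelled library (1.12%, with 6.49%). Between the double-labelled library and the Trp53-labelled library 2 of 255 were called (0.784%, with 1.24%), and against Tut1f/f;Cre 2 of 254 (0.787%, with 0.15%). All of these shares but the last were under the background, and the last rests on 2 isoforms of Mrpl55. The test compares reads of 2 libraries, not conditions. Over the 4 libraries edgeR's diffSpliceDGE, with Trp53 status as a term, called 0 of the 321 isoforms tested in 66 of these genes for Tut1 status (0 of 21738 isoforms in all). At an unadjusted p under 0.05 with 10 points, 53 isoforms were found in all and 0 of these genes. DESeq2 was not run on isoforms.

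Mrpl55 (chr11:59202486-59206134, plus strand, GRCm38) had the largest usage differences in well-covered reads. Its transcript Mrpl55-203 held 38.7%, 33.7%, 8.21% and 7.75% of the gene's 313, 184, 134 and 142 reads, and Mrpl55-201 held 30.03%, 37.5%, 56.0% and 59.2%. The 2 libraries with Trp53 floxed by label were alike and the 2 with Tut1 alone were alike. By Fisher's exact test the adjusted p of Mrpl55-203 was 6.08e-10 in the Trp53-labelled library and 1.21e-10 in the double-labelled library against the control, and 1.72e-05 in the latter against Tut1f/f;Cre. For Mrpl55-201 these were 1.38e-05, 6.23e-07 and 0.046. An isoform named after a read held 0 of 313 control reads, which allows a share of up to 0.958%, and 4.89%, 11.9% and 12.7% in the others.

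These transcripts differ in their annotated starts and ends, with Mrpl55-201 ending at 59206134 and Mrpl55-203 at 59206002. They also differ at the start of exon 2, where 2 acceptor sites lie 3 bases apart in the non-coding part before the start codon, and at the start of exon 3, where 2 acceptors lie 21 bases apart. The sequences across these joins, from the GENCODE M21 transcripts in transcript direction, show what each choice includes, with the bases that only the upstream acceptor keeps in capitals.
Mrpl55-201, exon 1 to exon 2: tcccacgctaagCAGggcctacgtcgg
Mrpl55-203, exon 1 to exon 2: tcccacgctaagggcctacgtcgg
Mrpl55-205, exon 2 to exon 3: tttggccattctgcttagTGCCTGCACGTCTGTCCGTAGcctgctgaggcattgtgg
Mrpl55-201, exon 2 to exon 3: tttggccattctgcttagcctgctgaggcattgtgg

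Reads were counted by the transcript they were assigned to, and the joins themselves were not read. Other Mrpl55 entries were left out. Of the reads of the 5 annotated transcripts, those with the downstream acceptor of exon 2 (position 59204175, against 59204172) were 152 of 291 in the control, or 52.2% (95% Wilson interval 46.5 to 57.9). They were 74 of 157 in Tut1f/f;Cre (47.1%, 39.5 to 54.9), 15 of 112 in the Trp53-labelled library (13.4%, 8.29 to 20.9) and 14 of 111 in the double-labelled library (12.6%, 7.66 to 20.1). The intervals of the first pair overlapped, as did those of the second pair, and the pairs did not overlap with each other. Transcripts with the downstream acceptor of exon 3 (59204556, against 59204535) held 73.9% (68.5 to 78.6), 83.4% (76.8 to 88.4), 76.8% (68.2 to 83.6) and 85.6% (77.9 to 90.9), and there the order of the libraries was another. These shares were computed after the usage differences of Mrpl55 were seen and carry no test. Mrpl55 lies 10.4 Mb from Trp53 on the same chromosome. The floxed Trp53 allele and the origin of the cells came together in these libraries and cannot be told apart.

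**Figure D5:**
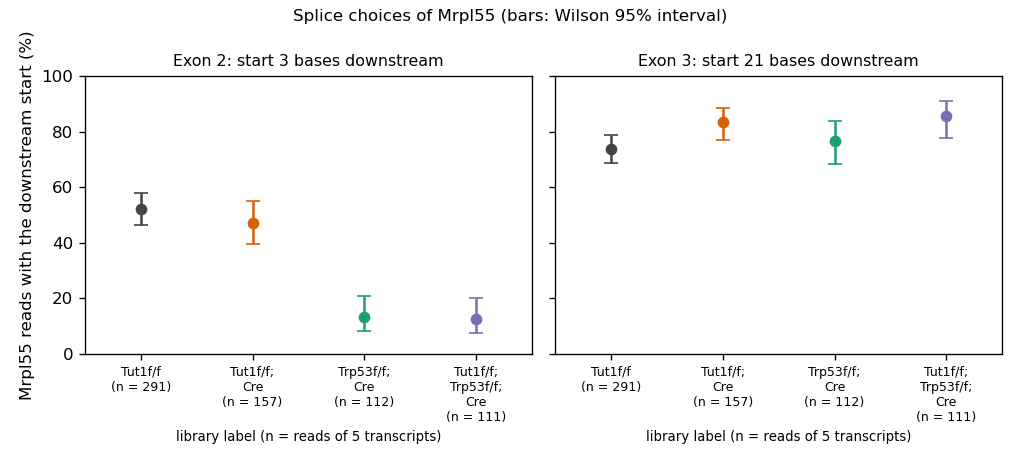
Share of reads of the 5 annotated Mrpl55 transcripts assigned to those with the downstream acceptor of exon 2 (left) and of exon 3 (right), in percent with 95% Wilson intervals, 1 point per library. For exon 2 the libraries fall into pairs at 52.2% and 47.1% and at 13.4% and 12.6%, and for exon 3 they lie between 73.9% and 85.6%.

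Usage calls in the other genes rested on fewer reads or on entries whose structure the table does not give. In Mrpl3 the entry ENSMUST00000035177 with suffix 0 went from 80.1% in the control to 6 of 20 reads in Tut1f/f;Cre (Fisher's exact test, adjusted p = 0.000298), and ENSMUST00000149243 from 7.09% to 65.0% (adjusted p = 6.35e-07), but Tut1f/f;Cre had only 20 Mrpl3 reads. In Mrps9, a small-subunit protein with a bacterial counterpart, the transcript Mrps9-201 held 84.3%, 67.6%, 69.9% and 73.1%, called in the first 2 comparisons with the control. An Mrps9 entry named after a read held 10.2%, 25.2%, 23.3% and 20%. Mrpl38, particular to the mitochondrial large subunit, had 66.5%, 45.5%, 48.1% and 57.1% of its reads in the coding transcript Mrpl38-201, also called in the first 2. Its retained-intron transcript Mrpl38-204 held 13.3%, 28.6%, 25% and 16.5% and was called only in Tut1f/f;Cre (Fisher's exact test, adjusted p = 0.0489).

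The remaining calls were each in a single comparison. In the Trp53-labelled library, Mrpl2-201 held 64.1% against 81.9% in the control and Mrpl2-202 held 21.8% against 5.57%. Mrpl18-201 held 64.2% there against 51.3%, and 1 entry named after a read was called in each of Mrpl13 and Mrpl9. Mrpl23, a protein near the exit tunnel of the large subunit, was called only between the double-labelled library and the Trp53-labelled library. Its transcript Mrpl23-201 held 57.6%, 52.96%, 51.6% and 64.2%, and Mrpl23-207 held 31.6%, 40.1%, 40% and 27.5%. The adjusted p of these was 0.0494 and 0.0351 by Fisher's exact test.

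Among reads of plain annotated transcripts, those annotated as retained introns were 1.57% (1.43 to 1.71), 1.72%, 1.64% and 1.72% (1.57 to 1.89) for the mitochondrial ribosomal protein genes. Over all protein-coding genes the same share was 1.54%, 2.52%, 2.34% and 2.29%. It was thus higher in the 3 Cre mRNA libraries than in the control over all genes, while the intervals of these genes overlapped in all 4 libraries. Transcripts annotated for nonsense-mediated decay, the pathway that removes mRNAs with early stop codons, held 0.589%, 0.656%, 0.623% and 0.728%, against 0.488%, 0.513%, 0.508% and 0.508% over all protein-coding genes.

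Of 57 listed genes that serve the mitoribosome without being members, 55 passed the filter, and 2 were called higher and 11 lower in Tut1f/f;Cre. The counts were 2 and 15 in the Trp53-labelled library and 2 and 7 in the double-labelled library, by the same ratio rule. Of all genes tested, 12.7%, 12.5% and 10.3% were called higher and 13.3%, 15.3% and 9.76% lower in these comparisons. For the 57 listed genes only the reads that name the gene were used, and position-only entries were not added. Of 20 genes of assembly and rRNA modification, 6, 7 and 3 were called lower and 1, 0 and 1 higher. Lower in all 3 were Malsu1, which keeps an unfinished large subunit from joining (182, 24, 24 and 25 reads), Rbfa, a small-subunit maturation factor (73, 10, 9 and 4 reads), and Ngrn (72, 22, 31 and 12 reads). Noa1, a GTPase of small-subunit assembly, was called higher in Tut1f/f;Cre and the double-labelled library from 18, 30, 19 and 31 reads.

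Of the mitochondrial aminoacyl-tRNA synthetases, which charge the tRNAs the mitoribosome uses, 15 passed the filter, and 3, 5 and 4 were called lower and 1, 1 and 0 higher. Lars2, the leucine enzyme, had 2925, 493, 546 and 237 reads, most of the list's reads in the control, and Hars2, the histidine enzyme, had 87, 26, 33 and 17. Of the 9 translation factors, 1, 2 and 0 were called lower and 0, 1 and 1 higher. Tsfm, the exchange factor of mitochondrial elongation factor Tu, had 205, 78, 75 and 95 reads and was lower in the first 2 libraries, and Tufm, the elongation factor itself, had 422, 171, 174 and 227 and was called in the Trp53-labelled library (-1.09). Of the 5 mitoribosomal proteins under other symbols, Ptcd3 was called lower in the Trp53-labelled library (-1.29) and no other call was made. Chchd1, of the small subunit, had 1610, 1704, 2191 and 1949 reads and was above the control without passing 2-fold (0.47, 0.64 and 0.71). Of the 6 genes of mitochondrial transcription and mRNA binding, 1 was called lower in Tut1f/f;Cre and none in the other 2 libraries.

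Promoter sequences, which the selection did not use, were searched for 3 motifs. NRF1, ETS-family factors and YY1 are known regulators of nuclear genes for mitochondrial proteins. Of the 78 genes, 69 had a RefSeq promoter sequence (GRCm38.p6, 250 bases before to 50 after the start). On either strand, 7 of the 69 (10.1%) held the NRF1 letters CGCATGCG, against 2.89% of 16522 protein-coding promoters of this length. The ETS letters CCGGAAGT were in 12 (17.4%, against 5.94%) and the YY1 letters AANATGGC in 21 (30.4%, against 7.59%). At least 1 of the 3 was in 35 (50.7%, 39.2 to 62.2), against 15.1%, and the other 34 held none. None of the 3 motifs contains another, and a match is a description, not a binding site.

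By the reads that name the gene, Mrps24, which did not pass the filter, and Mrpl3 lay farthest below the control. Mrps30 lay farthest above it in each of the 3 comparisons by these reads. This order did not hold in every comparison with position-only entries added. The promoters of these genes are shown with their match in capitals, each on the strand of its gene. They are Mrpl3 at chr9:105053018-105053317 on the plus strand, with an ETS match, and Mrps24 at chr11:5707652-5707951 and Mrps30 at chr13:118387203-118387502 on the minus strand, each with a YY1 match.
Mrpl3: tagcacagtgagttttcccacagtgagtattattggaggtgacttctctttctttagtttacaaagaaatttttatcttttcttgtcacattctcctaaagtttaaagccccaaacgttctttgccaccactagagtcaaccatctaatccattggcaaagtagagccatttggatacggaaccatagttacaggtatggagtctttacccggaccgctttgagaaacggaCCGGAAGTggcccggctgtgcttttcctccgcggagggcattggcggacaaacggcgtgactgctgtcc
Mrps24: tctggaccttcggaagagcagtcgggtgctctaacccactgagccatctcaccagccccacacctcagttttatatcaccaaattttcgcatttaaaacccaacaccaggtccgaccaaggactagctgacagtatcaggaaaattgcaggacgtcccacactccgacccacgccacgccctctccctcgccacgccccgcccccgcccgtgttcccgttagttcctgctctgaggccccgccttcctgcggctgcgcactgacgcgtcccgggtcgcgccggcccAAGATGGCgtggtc
Mrps30: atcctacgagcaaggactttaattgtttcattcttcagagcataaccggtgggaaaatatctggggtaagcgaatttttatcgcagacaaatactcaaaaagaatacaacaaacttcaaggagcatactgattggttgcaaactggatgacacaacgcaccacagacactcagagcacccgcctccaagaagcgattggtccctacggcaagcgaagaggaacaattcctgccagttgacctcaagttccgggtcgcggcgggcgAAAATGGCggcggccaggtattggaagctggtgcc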

How the data were processed

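The authors deposited 1 table of whole-number read counts per isoform for 4 libraries. Per the labels, total RNA was extracted with Trizol and PCR-amplified cDNA was read on a Nanopore instrument, and mm10 is the build in the submitters' processing notes. The study's methods name minimap2, an Ensembl transcriptome and FLAIR for Nanopore reads of dissected pallium. For this table the aligner, annotation and filters are not given in the sources used here. Reads were copied by PCR and carry no molecular identifiers, so they do not count molecules and intervals cover counting error only.

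Isoform counts were summed per gene by the Ensembl gene identifier that ends each entry and matched to GENCODE M21. Entries with no gene identifier (17.2% to 30.2% of reads) stayed out of library sizes and tests. Where position-only entries were added, the window ran from the gene start, rounded down to 1000 bases, to the gene end, on either strand. Counts were scaled by TMM over all genes, and genes passing edgeR's filterByExpr were tested (edgeR 4.0.16, R 4.3.3, DESeq2 1.42.0, Python 3.11.15, scipy 1.17.1). With 1 library per group, pairs were compared by the ratio of CPM with an exact 95% Clopper-Pearson counting interval, and called at 2-fold or more with an interval excluding no change. Medians used a pseudocount of 0.5 CPM, and fold changes of single genes used none. Shares carry Wilson intervals. An additive edgeR quasi-likelihood model of Tut1 and Trp53 status and diffSpliceDGE used all 4 libraries, with Benjamini-Hochberg adjustment over all features. Usage was tested by Fisher's two-sided exact test where the isoform had 10 or more reads over the pair and its gene 20 or more in each library. The scripts were tested on simulated data. For the ratio rule and Fisher's test these held counting error only, so they are no check of calls between single libraries.

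The genes and lists were chosen with earlier results of these data known. Genes named were those called by ratio (at most 10 per direction, at least 20 reads over the pair), called in the same direction in the pair of Tut1 comparisons that share no library, of the 3 lowest p per model term, with called isoforms (at most 10 per comparison), or with textbook roles. Alternatives were library-total and DESeq2 scaling, the ribosomal RNA gene CT010467.1 left out, 1.5-fold, other filters, a pseudocount of 2 CPM, plain transcripts only, 20 percentage points or 50 gene reads for usage, the 3 genes with most reads left out, DESeq2, and status fitted alone. Libraries left out in turn and position-only entries, with and without TMM over the enlarged counts, were added after seeing the data.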

Additional observations from a re-analysis of the deposited data

Results flagged for a closer look

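Mrps27 differed in sign between the comparisons of Tut1 status and again between those of Trp53 status. Tut1f/f;Cre was lower than the control by -1.17 on the log2 scale, while the double-labelled library was higher than the Trp53-labelled library by 1.05. The Trp53-labelled library was lower than the control by -1.18, while the double-labelled library was higher than Tut1f/f;Cre by 1.04. With 1 library per group the difference between these effects was not tested.

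Reads of entries that name only a position inside the bodies of these genes, which the gene comparisons do not use, were 6.71% in Tut1f/f;Cre, 6.14% in the Trp53-labelled library and 5.88% in the double-labelled library, above the 4.87% of the control.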

How the results depend on the processing

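Main counts of genes called by ratio, in the order of the 5 comparisons of the report, were 11, 11, 8, 1 and 1. They became 26, 19, 29, 6 and 4 at 1.5-fold (7.79% and 5.19% for the last 2, beside 18.3% and 11.9% of all genes), 6, 7, 4, 2 and 0 of 71 with plain transcripts only (8.45%, 9.86%, 5.63%, 2.82% and 0%, beside 24.3%, 25.6%, 18.3%, 7.15% and 4.47% of all 7243 genes), and 6, 5, 4, 0 and 0 with position-only entries added under the same scaling. With those entries added and TMM recomputed, they were 19, 14, 8, 0 and 0, the summed difference from the control was -0.36, -0.37 and -0.18 and the median -0.41, -0.40 and -0.20, so both turned sign in the double-labelled library, whose sum was higher than Tut1f/f;Cre by 0.18 and whose medians against the other 2 Cre mRNA libraries were 0.20 and 0.19. Library-total scaling gave 5 for the third (6.49%, beside 20.6% of all genes), and moved the median of all genes to 0.11, 0.09 and 0.12 against the control. The summed difference from the control became 0.11, 0.066 and 0.26 with library totals, 0.084, 0.069 and 0.16 with plain transcripts only and -0.060, -0.099 and 0.087 without the 3 genes with most reads, so in the Trp53-labelled library its sign turned under the first 2. DESeq2 size factors gave 0.10, 0.13 and 0.10 for the last 3 comparisons, plain transcripts 0.091 and 0.077 for the last 2, and leaving out CT010467.1 0.14 for the double-labelled against the Trp53-labelled library. The median difference became 0.040 (sign turned), -0.0059 and 0.23 with library totals, and 0.14 and 0.11 in the last 2 comparisons with DESeq2 size factors. Called isoforms became 3, 2 and 0 in Tut1f/f;Cre and the Trp53-labelled library against the control and in the double-labelled against the Trp53-labelled library at 20 points, and 3 and 6 in the first 2 with plain transcripts only. The share of all isoforms called at these settings is not given here, so these counts have no background. Leaving out 1 library at a time with status fitted alone gave 0 to 10 genes for Tut1 and 0 to 10 for Trp53. The 10 came without the Trp53-labelled library for Tut1 and without Tut1f/f;Cre for Trp53. The cause of these changes was not tested. No paired analysis was possible because each group had 1 library. Low depth limits Mrps24, Mrps26, Mrps30 and Mrpl3, which had under 60 reads in at least 1 library.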

Other observations

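Processed pseudogenes of these genes are not members and had few reads. Mrpl23-ps1 had 26, 20, 27 and 18 reads in the 4 libraries, Mrps36-ps1 had 14, 14, 17 and 13, and Mrps36-ps2 had 0, 1, 1 and 0. Slirp, which stabilises mitochondrial mRNAs and belongs to the listed genes of mitochondrial transcription and mRNA binding, had 1608, 2030, 2411 and 2007 reads and lay above the control without passing 2-fold (0.73, 0.78 and 0.75 on the log2 scale). Mtrf1l, a mitochondrial release factor, was called higher in the Trp53-labelled and double-labelled libraries (1.23 and 1.26) from 18, 22, 37 and 32 reads, and Yars2, the tyrosine synthetase, in Tut1f/f;Cre and the Trp53-labelled library (1.39 and 1.24) from 15, 30, 31 and 15.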
